A study of Mus musculus with 4 samples.

Results

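RNA bound by Musashi1 (Msi1) in mouse intestine was compared with RNA recovered by a control immunoglobulin. The comparison rests on 2 of the 4 arrays in the series, the array labelled Msi1 and the array labelled IgG, and its value for each gene is the Msi1 log2 signal minus the IgG log2 signal. The tissue was intestinal epithelium of C57BL/6 mice, taken as adults and irradiated with ultraviolet light, which links protein to RNA. The Msi1 array carried RNA precipitated with an antibody to Msi1 and the IgG array RNA precipitated with IgG, and each was a pool of RNA from 2 independent experiments. An array of Input RNA, taken with no antibody, and an array of RNA precipitated with an hnRNP antibody are used here only to place the genes. RNA was random primed, labelled with biotin from 100 ng and hybridized to the Affymetrix Mouse Gene 1.0 ST design, and the submitters state that fold enrichment was ranked over IgG. Each group had 1 array, so there is no measure of spread, no test was made, and every difference below is an effect size between a pair of arrays.

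Musashi proteins are RNA-binding proteins that were named for a Drosophila mutant of sense organs. They hold a pair of RNA recognition motifs and bind short stretches of U that end in AG, mostly in the untranslated parts of messenger RNAs, where they are known to change translation and stability. In the gut, Msi1 is known as a marker of progenitor cells at the crypt base, and the Notch inhibitor Numb is among its textbook targets. Crosslinking before precipitation (CLIP) is meant to keep only RNA that touched the protein, and the IgG precipitation measures RNA that sticks without it.

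The signal over background takes the place of sequencing depth on an array, and the number of arrays limits the precision. Background was set for each array by 1208 probe sets of olfactory and vomeronasal receptors, which gut epithelium should not express, and the 95th percentile of their signals was the floor. The floors were 4.74 on Msi1, 5.26 on IgG, 4.09 on Input and 5.17 on hnRNP. Of the genes other than receptors, 9466 (50.5%) stood above the floor on Msi1, 5545 (29.6%) on IgG, 11725 (62.6%) on Input and 6499 (34.7%) on hnRNP. A gene was tested, in the sense of being compared, if it exceeded the floor on Msi1 or on IgG, and 10281 genes did so. The receptor genes themselves had a median difference of −0.38, with 0.838% of them 2-fold or more above IgG and 16.2% 2-fold or more below it. Background was thus dimmer on the Msi1 array than on the IgG array.

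More genes were higher than lower in Msi1. Of the 10281 genes, 1924 (18.7%) exceeded IgG by 2-fold or more and 692 (6.73%) lay below it by 2-fold or more, and these are called higher and lower here. The median difference was 0.07, and 90% of the genes lay between −1.12 and 2.33 (5th and 95th percentiles). At the upper end 259 genes exceeded 8-fold and 80 exceeded 16-fold, and at the lower end 24 genes exceeded 4-fold. For 1549 of the 1924 higher genes the IgG signal did not reach its floor, and these genes entered the comparison only through the Msi1 array. Likewise 441 of the 692 lower genes had a Msi1 signal under its floor. In such cases the dimmer signal is raised to its floor and the fold is written as "at least". By that stricter reading 1118 genes (10.9%) were called higher and 395 (3.84%) lower. Among the 4730 genes above the floor on both arrays, 375 (7.93%) were higher and 251 (5.31%) lower. Of all genes called in either direction, 73.5% were higher, a share that was 59.8% after quantile normalization of the arrays. Centring the arrays on their medians raised the median difference of all genes by 0.13, and loess centring raised it by 0.18.

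**Figure D1:**
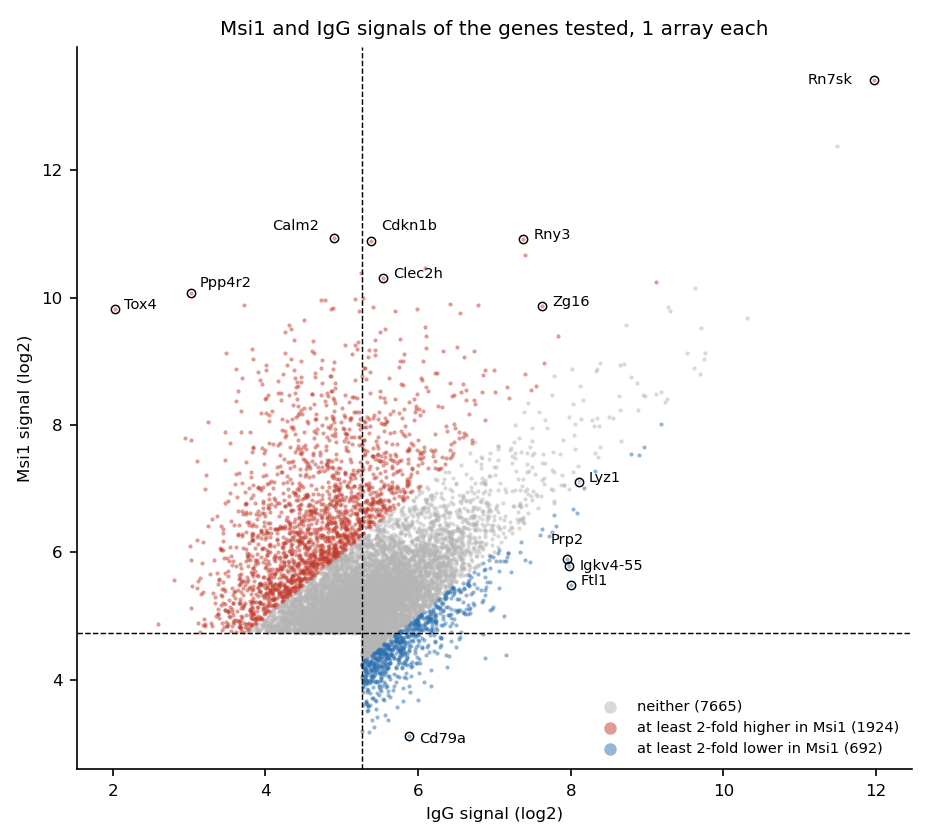
Msi1 signal (vertical axis, log2) against IgG signal (horizontal axis, log2) for the 10281 genes tested, 1 point per gene, with dashed lines at the floors of 4.74 (Msi1) and 5.26 (IgG). Red points are the 1924 genes called higher in Msi1 (2-fold or more), blue points the 692 genes called lower, and most red points lie left of the IgG floor.

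The genes that follow the 15 highest in the ranking by deposited difference, ranks 16 to 45, differed by 4.45 to 5.13 log2 units and were at least 5.74-fold to 34.7-fold higher in Msi1. IgG was below its floor for 27 of these 30 genes, all 30 were above the Input floor, and 22 read higher in Msi1 than in Input. Chromatin, splicing and RNA genes were among them. Kdm7a, a histone demethylase, read 10.38 in Msi1 and 5.25 in IgG, at least 34.7-fold higher, and its other probe set was also past 2-fold (2.09). Snrpe, a core protein of spliceosomal particles, read 9.85 in Msi1 and 4.88 in IgG. Srsf1, a splicing factor of the SR family, read 8.86 in Msi1 and 4.38 in IgG, and Hnrnpa2b1, an hnRNP protein, read 8.80 in Msi1 and 4.23 in IgG. Paip2, an inhibitor of the poly(A)-binding protein, read 7.79 in Msi1 and 2.94 in IgG, and since that IgG signal is far below the floor the gene is only known to be at least 5.74-fold higher. Tbl1xr1, a subunit of a nuclear corepressor, differed by 4.55 on this probe set and by 2.24 on its other.

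Small GTPases and trafficking proteins made up another group in ranks 16 to 45. Rap1b, a Ras-like GTPase of cell adhesion, read 8.74 in Msi1 and 3.69 in IgG (at least 11.1-fold). Arf6, which acts in endocytosis and at the cell cortex, read 9.98 in Msi1 and 5.17 in IgG (at least 26.3-fold). Rab1a, a GTPase of transport from the endoplasmic reticulum to the Golgi, was at least 13.6-fold higher, and the sorting nexin Snx13 at least 11.9-fold higher. Rhoa, which controls the actin cytoskeleton, differed by 4.70 on this probe set and by 1.15 on its other. Dnajc13, an endosomal co-chaperone, differed by 4.87 on the probe set chosen, but its 15 probe sets ran from −0.29 to 4.87. Erbin, a scaffold protein of the basolateral membrane, and Myl12b, a regulatory light chain of myosin, differed by 4.88 and 4.54. Lamtor3, a subunit of the lysosomal Ragulator complex, differed by 4.66 on the probe set chosen and by −0.02 on its other.

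The remaining genes of these ranks act mostly in metabolism, signalling and growth. Cox7b, a subunit of cytochrome c oxidase, read 9.99 in Msi1 and 5.28 in IgG (26.2-fold), and its probe sets differed by 3.05 and 4.71. Pcna, the replication clamp, differed by 4.49 and 7.78 on its probe sets, so that the probe set chosen was the smaller of the pair. Gnpnat1, an enzyme of UDP-N-acetylglucosamine synthesis, was past 2-fold on both probe sets (3.18 and 4.53). Slc44a1, a choline transporter, was as well (2.05 and 4.96). Cmpk1, a pyrimidine nucleotide kinase, Pank3, which starts coenzyme A synthesis, and Akr1a1, an aldehyde reductase, were at least 10.8-fold, 10.4-fold and 14.9-fold higher. Stk17b, a kinase related to death-associated protein kinases, was at least 23.6-fold higher, and Pdcl, a phosducin-like chaperone, at least 6.88-fold. Tfb2m, a transcription factor of mitochondria, differed by 4.45 on the probe set chosen and by 0.46 on its other. Yae1d1 and Tmem167 rested on 1 of their 2 probe sets, since the others differed by −0.55 and −0.81.

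Among the 15 highest genes above the floor on both arrays, no fold depends on a bound, although their IgG signals of 5.28 to 5.99 lay close above the floor of 5.26. Differences ranged from 3.60 to 5.52 log2 units, or 12.1-fold to 45.8-fold. The largest of them, the cyclin-dependent kinase inhibitor gene Cdkn1b, differed by 5.52 on the probe set chosen and by 0.59 on its other. In Input these probe sets read 4.37, near the floor of 4.09, and 6.89. Beside Cdkn1b, Cox7b and Tfb2m they held Clec2h, a C-type lectin-related gene of gut epithelium, with signals of 10.30 in Msi1 and 5.54 in IgG. Mucosal defence was represented by B2m, the light chain of MHC class I, and Pigr, the receptor that carries IgA across the epithelium. B2m read 9.51 in Msi1 and 5.56 in IgG (15.4-fold), and Pigr read 9.18 in Msi1 and 5.36 in IgG (14.1-fold). The RNA helicase gene Ddx3x differed by 3.91 on the probe set chosen and by 6.85 on its other. The nuclear noncoding RNA Malat1 read 9.82 in Msi1, 5.99 in IgG and 7.60 in hnRNP, so that it stood above background with both antibodies. Rab10, a GTPase of basolateral transport, was 15.7-fold higher and Hook1, a dynein adaptor, 13.2-fold. Srsf3, another SR protein, was 17.0-fold higher on the probe set chosen, but its 3 probe sets ran from −3.99 to 4.64. Srsf10 differed by 3.60 on the probe set chosen and by 0.57 on its other.

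**Figure D2:**
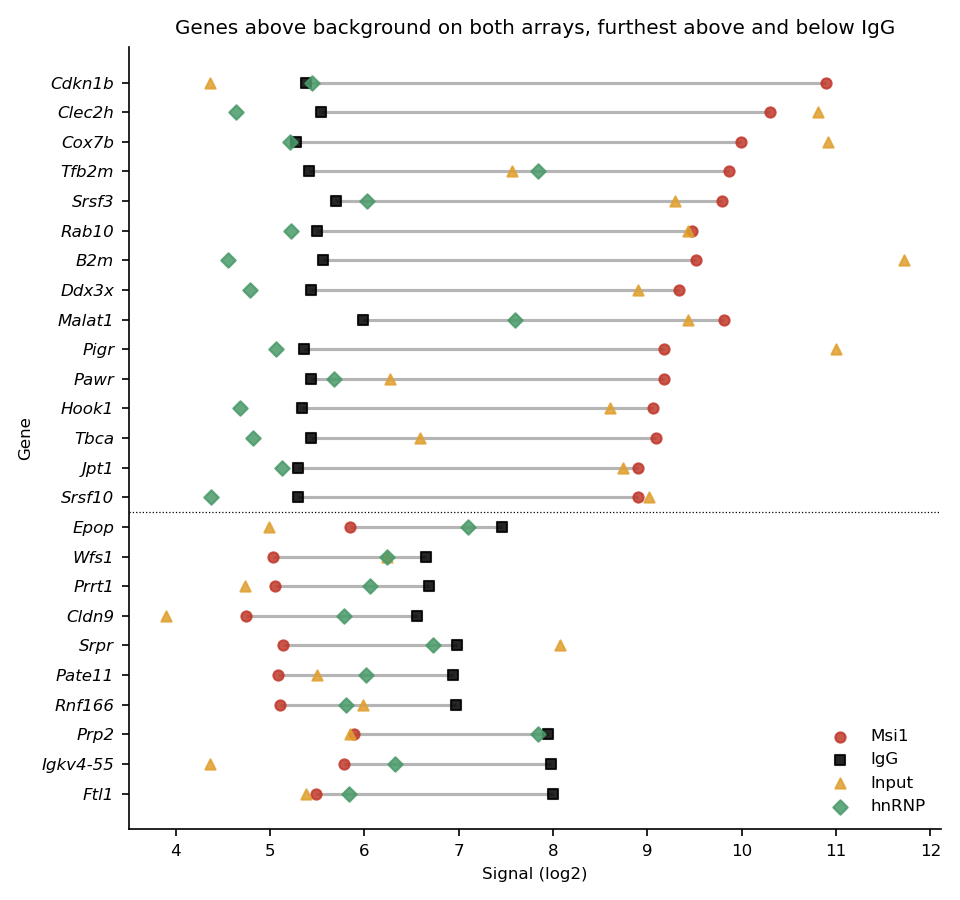
Signals (horizontal axis, log2) on the Msi1, IgG, Input and hnRNP arrays for the 15 genes furthest above and the 10 genes furthest below IgG among those above the floor on both arrays, 1 gene per row. The upper 15 lie between 8.90 and 10.90 in Msi1 and between 5.28 and 5.99 in IgG, and the lower 10 between 4.75 and 5.89 in Msi1 and between 6.56 and 8.0 in IgG.

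Gene lists are given below as members called higher, members called lower and members tested, with the list's median difference, to be read beside 18.7% higher, 6.73% lower and a median of 0.07 over all genes tested. A member was tested only if it exceeded a floor, so a median printed for the members tested is followed by that over every member on the array where it differs by more than rounding, to be read beside −0.19 over all 19937 genes. The share higher also increased with Input level, as given further below, so a list bright in Input is to be compared with genes of like level. The members of one list are not replicates. Of the 52 lists with at least 5 members tested, 8 had more than 50% of them higher.

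Absorptive epithelium was represented on the Msi1 array by many of its marker genes. Of 15 enterocyte markers, all tested, 10 were higher and 0 lower, with a median of 1.55. The median Input signal of these markers was 10.25, the Input floor being 4.09. Sucrase-isomaltase (Sis), a brush border disaccharidase, read 8.34 in Msi1 and 4.91 in IgG (at least 8.44-fold). The villus scaffold protein villin (Vil1) read 7.10 in Msi1 and 5.10 in IgG, the peptidase Anpep read 8.40 in Msi1 and 6.74 in IgG, and the fatty acid-binding protein Fabp1 read 6.95 in Msi1 and 5.41 in IgG. Lactase (Lct) differed by 0.09 and the apolipoprotein gene Apoa1 by 0.71 although their Input signals were 9.78 and 11.58. Among 23 brush border and actin genes, 14 were higher and 0 lower, with a median of 1.29. They included the plastin Pls1 of microvilli (8.71-fold), the tropomyosin Tpm3 (7.16-fold on the probe set chosen, with 4 probe sets from −0.33 to 2.84) and the capping protein subunit Capza2 (at least 6.67-fold). Profilin (Pfn1) differed by −0.63. Among 18 genes of fat absorption and chylomicron assembly tested, of 20 on the array, 10 were higher and 1 lower, with a median of 1.19 (1.05 over all 20). Apob, the chylomicron's structural protein, and Mttp, which loads it with lipid, were 4.69-fold and 4.35-fold higher. Sar1b, the coat GTPase that chylomicrons need, was at least 2.70-fold higher, and the lipoprotein receptor Scarb1 was 2.06-fold lower.

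Genes of the early secretory pathway were also frequent among those higher in Msi1. Of 24 COPI and COPII coat and cargo receptor genes tested, 15 were higher and 0 lower, with a median of 1.26 (1.18 over all 25). With dimmer signals raised to the floor, 11 of the 24 were still at least 2-fold higher. Tmed2, a cargo receptor between the endoplasmic reticulum and the Golgi, differed by 3.87 on the probe set chosen, with 3 probe sets from 0.14 to 3.87. Sec23a, a subunit of the COPII coat, was 4.24-fold higher and Copz1, of the COPI coat, at least 3.69-fold. Genes of protein translocation into the endoplasmic reticulum had 9 members higher and 1 lower of 19, with a median of 0.95 (0.79 over all 21). The translocon protein Ssr1 read 8.53 in Msi1 and 4.85 in IgG, the signal peptidase subunit Spcs1 read 7.91 in Msi1 and 4.64 in IgG, and the translocation factor Sec63 read 7.11 in Msi1 and 4.28 in IgG. The lower member was Srpr, the receptor of the signal recognition particle, with 5.13 in Msi1, 6.98 in IgG, 8.07 in Input and 6.73 in hnRNP.

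Endosomal genes had several members far above IgG. Of 53 sorting nexin, retromer and ESCRT genes, 23 were higher and 0 lower, with a median of 0.67 (0.28 over all 75). The ESCRT genes Chmp1b and Chmp2b were at least 3.93-fold and 7.10-fold higher, and the ATPase Vps4b, which takes ESCRT polymers apart, at least 7.18-fold on 1 of its 2 probe sets (the other differed by 0.07). Of 45 Rab GTPases, 13 were higher and 1 lower, with a median of 0.05 (−0.22 over all 59). Rab11a of recycling endosomes and Rab21 of early endosomes differed by 3.22 and 3.14, and Rab4b by −1.09. Vacuolar ATPase subunits had 3 members higher and 0 lower of 14, with a median of −0.16 (−0.30 over all 24). The sign of that median depended on the probe sets. It was 0.50, with 5 of 14 higher, by the probe set brightest on Input, and 0.18 by the mean of the probe sets.

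Lipid synthesis lists were small. Of 12 cholesterol synthesis genes tested, 4 were higher and 1 lower, with a median of 0.73 (0.27 over all 18). Hmgcs1, an early enzyme of the pathway, read 7.08 in Msi1 and 3.60 in IgG, and Insig1, which holds back its transcriptional activation, read 8.26 in Msi1 and 5.0 in IgG. Scap, the partner protein that Insig1 binds, read 5.22 in Msi1 and 6.59 in IgG and was 2.57-fold lower. Idi1, an isomerase of the pathway, differed by 2.93 on the probe set chosen and by −0.72 on its other, and after quantile normalization its value was −0.97. Of 19 sphingolipid genes, 8 were higher and 0 lower, with a median of 0.76 (0.51 over all 26). Ugcg, which makes glucosylceramide, and the ceramidase Asah2 were at least 2.71-fold and 4.46-fold higher.

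RNA-binding proteins themselves were among the genes most often higher in Msi1. Of 10 SR splicing factors, all tested, 8 were higher and 1 lower, with a median of 2.63, the highest of all 56 lists. Srsf1, Srsf3 and Srsf10 are described above, and Srsf2 read 9.01 in Msi1 and 5.80 in IgG (9.27-fold). The lower member was Srsf12, with 4.70 in Msi1, below its floor, and 5.93 in IgG. Of 24 hnRNP genes, 16 were higher and 1 lower, with a median of 1.77 (1.71 over all 25). Syncrip, an hnRNP-like protein, was at least 8.97-fold higher and Ptbp3, a relative of the splicing regulator Ptbp1, at least 3.88-fold, while Ptbp1 differed by −0.73. The lower member, Hnrnph2, was −1.01 on the probe set chosen but 1.58 on its other. Of 29 genes of mRNA decay and deadenylation, 14 were higher and 0 lower, with a median of 0.94 (0.82 over all 39). With dimmer signals at the floor 7 of the 29 were at least 2-fold higher, and of the 10 above the floor on both arrays 3 were higher, with a median of −0.15. Tob1, which recruits the deadenylase, was at least 6.12-fold higher, Exosc9, an exosome subunit, at least 3.28-fold, and the nonsense-mediated decay helicase Upf1 differed by −0.94. Sm and LSm proteins had 7 members higher and 1 lower of 20 with a median of 0.22 (0.18 over all 23), and set Snrpe (4.96) beside Snrpd2 (−1.16).

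Genes of translation were mixed. Of 47 translation factors, 19 were higher and 1 lower, with a median of 0.63 (0.11 over all 60). Eif3e read 8.39 in Msi1 and 4.20 in IgG, the initiation factor relative Eif4g2 read 8.36 in Msi1 and 5.09 in IgG, and Eif5a, on 1 of its 2 probe sets, read 5.50 in Msi1 and 6.66 in IgG. Of 53 cytosolic ribosomal protein genes, 19 were higher and 4 lower, with a median of 0.68 (0.51 over all 62), which was 0.10 after quantile normalization. These genes have many near-identical pseudogenes, and their probe sets disagreed. Rps6 ran from −2.10 to 5.28 over 7 probe sets, Rpl27a from −2.76 to 2.75 over 9 and Rpl9 from −1.82 to 1.49 over 8, so single ribosomal protein genes are uncertain. Mitochondrial ribosomal proteins had 13 members higher and 4 lower of 62, with a median of 0.22 (0.11 over all 74).

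Mitochondrial respiratory genes lay on both sides of IgG. Of 79 respiratory chain and ATP synthase genes, 19 were higher and 4 lower, with a median of 0.13 (0.09 over all 90). After quantile normalization 16 were higher and 12 lower, with a median of −0.00. Beside Cox7b, the ATP synthase subunit Atp5g3 read 8.81 in Msi1 and 4.65 in IgG, the complex I subunit Ndufv2 read 8.06 in Msi1 and 4.29 in IgG, and Cox6c differed by 2.27 and 3.03 on its probe sets. The complex I subunits Ndufb7, Ndufs5 and Ndufs7 were lower, by −1.53, −1.46 and −1.25, and so was the ATP synthase subunit Atp5d, by −1.40. Of 19 mitochondrial import genes, 8 were higher and 0 lower, with a median of 0.60 (0.20 over all 27). The paralogs Timm17a and Timm17b, channel subunits of the inner membrane, differed by 3.40 and −0.83, although the other Timm17a probe set read 0.69.

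Protein folding and degradation lists had medians above that of all genes tested. Of 32 proteasome genes, 15 were higher and 0 lower, with a median of 0.90 (0.42 over all 39), but only 5 stayed at least 2-fold higher with the IgG signal raised to its floor. Psmc6, an ATPase of the regulatory particle, was at least 8.84-fold higher, and Psma3, of the core, at least 5.82-fold. Of 29 ubiquitin-conjugating and ubiquitin-like genes, 12 were higher and 0 lower, with a median of 0.87 (0.68 over all 33), led by Ube2n and its partner Ube2v2, at least 6.50-fold and 5.36-fold higher. The cytosolic chaperonin CCT had 5 members higher and 0 lower of 7, with a median of 1.46 (1.39 over all 9). Among its members Cct2 was at least 3.47-fold higher, but 2 of 7 were at least 2-fold higher with dimmer signals at the floor. Of 53 heat shock chaperones, 20 were higher and 3 lower, with a median of 0.50 (0.31 over all 66). Hsp90aa1 differed by 2.40 to 4.10 over 3 probe sets and Hsp90b1, its relative in the endoplasmic reticulum, by 3.27. Hspd1, the mitochondrial chaperonin, differed by 3.05 and 3.24 on its probe sets, and its partner Hspe1, whose gene lies beside it, by −1.39 and 3.28.

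**Figure D3:**
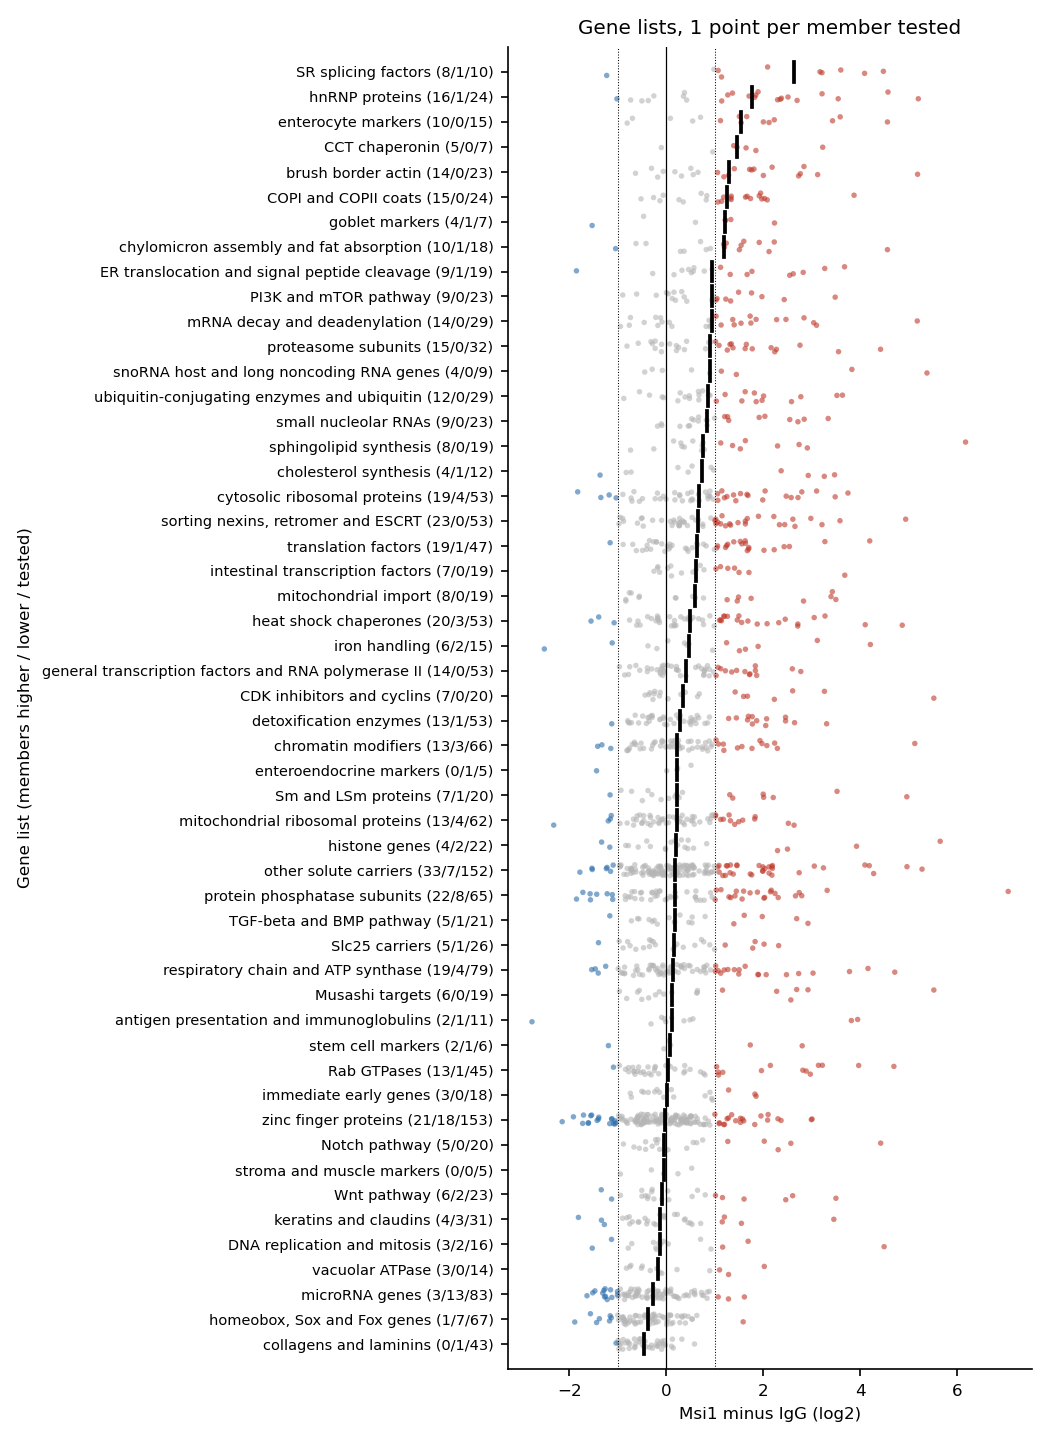
Msi1 minus IgG difference (horizontal axis, log2) of each tested member of the gene lists with at least 5 members tested, 1 point per gene, red where at least 2-fold higher, blue where at least 2-fold lower and grey otherwise, with a black bar at the list's median. Medians run from 2.63 for SR splicing factors at the top to −0.47 for collagens and laminins at the bottom.

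Signalling lists differed in how many members were higher. The list of Musashi targets, written with earlier results of these data known, had 6 members higher and 0 lower of 19 tested. Its median was 0.12 (−0.05 over all 23), which became −0.02 after quantile normalization. Of the 11 targets above the floor on both arrays only 1, Cdkn1b, was higher, and their median was −0.22. With dimmer signals at the floor 5 of the 19 were higher. Of 23 PI3K and mTOR pathway genes, 9 were higher and 0 lower, with a median of 0.95 (0.43 over all 25), and with dimmer signals at the floor 4 were. Sesn1, a stress-induced inhibitor of mTOR complex 1, was at least 2.96-fold higher. The paralogs Pik3r1 and Pik3r2, regulatory subunits of PI3-kinase, differed by 1.76 and −0.89. Of 20 Notch pathway genes, 5 were higher and 0 lower, with a median of −0.05 (−0.17 over all 23), which was 0.09 after median centring. The ubiquitin ligase Itch, which acts on Notch, was at least 8.97-fold higher. Of 23 Wnt pathway genes, 6 were higher and 2 lower, with a median of −0.09, which was 0.04 after median centring. Ctnnb1 (beta-catenin) was at least 3.48-fold and the receptor Fzd5 3.04-fold higher. Of 21 TGF-beta and BMP pathway genes, 5 were higher and 1 lower, with a median of 0.17. The receptor gene Acvr2a read 6.09 in Msi1 and 4.11 in IgG, and the coreceptor gene Tgfbr3 read 4.59 in Msi1 and 5.75 in IgG. Of 65 protein phosphatase subunits, 22 were higher and 8 lower, with a median of 0.19 (−0.07 over all 86). The catalytic subunits Ppp1cb and Ppp1cc differed by 2.80 and 3.32, and the other Ppp1cc probe set by −1.77.

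Cell cycle lists were small. Of 20 CDK inhibitors and cyclins, 7 were higher and 0 lower, with a median of 0.35 (0.30 over all 26), among them Ccnc, the cyclin of the Mediator kinase, and Ccng1, at least 6.66-fold and 2.66-fold higher. Of 16 DNA replication and mitosis genes, 3 were higher and 2 lower, with a median of −0.13 (−0.11 over all 28). Beside Pcna, topoisomerase Top2a differed by 1.69 and −0.44 on its probe sets, while the mitotic kinase Plk1 differed by −1.13 and the replication factor Gins2 by −1.52.

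Transcription regulators of the gut and of other tissues were counted apart. Of 19 intestinal transcription factors, 7 were higher and 0 lower, with a median of 0.62 (0.59 over all 20). Hnf4g and Hnf4a, nuclear receptors of enterocyte genes, read 7.63 and 7.36 in Msi1 and 3.95 and 5.66 in IgG. Gata4 was 2.66-fold and the epithelial factor Ehf 2.83-fold higher, while Cdx2 differed by −0.18 and Sox9 by −0.25. Homeobox, Sox and Fox genes, most of them patterning factors of other tissues, had 1 member higher and 7 lower of 67, with a median of −0.37 (−0.35 over all 99), which stayed below 0 under median centring (−0.24), loess centring (−0.30) and quantile normalization (−0.53). The count of lower members was 22 of 67 after quantile normalization and 11 after loess centring. Their median Input signal was 4.36, near the Input floor of 4.09. The receptor genes that set the floor had a median difference of −0.38 as deposited, so the median of this list lay at background. The endothelial factor Sox18 read 4.67 in Msi1, 6.55 in IgG and 4.35 in Input. Zinc finger proteins had 21 members higher and 18 lower of 153, with a median of −0.02 (−0.15 over all 344), which became 0.12 after median centring and 0.08 after loess centring. Of 66 chromatin modifiers, 13 were higher and 3 lower, with a median of 0.23 (0.15 over all 80). Of 53 general transcription and RNA polymerase II genes, 14 were higher and 0 lower, with a median of 0.41 (0.23 over all 71). Histone genes had 4 members higher and 2 lower of 22, with a median of 0.21 (−0.18 over all 39), and H2az2 was at least 11.3-fold higher while H2bc14 was 2.24-fold lower.

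Iron genes set the ferritin chains on opposite sides of IgG. Of 15 iron handling genes, 6 were higher and 2 lower, with a median of 0.47 (0.42 over all 17). The iron sensor Ireb2, which binds iron-responsive RNA elements, read 7.88 in Msi1 and 3.67 in IgG, and the transferrin receptor Tfrc read 7.87 in Msi1 and 4.76 in IgG. The ferritin heavy chain Fth1 read 6.85 in Msi1, 5.21 in IgG, 11.21 in Input and 5.76 in hnRNP. The ferritin light chain Ftl1 read 5.49 in Msi1, 8.0 in IgG, 5.38 in Input and 5.84 in hnRNP, so that IgG was the array on which it was brightest. Fth1 was thus at least 2.99-fold higher and Ftl1 5.70-fold lower in Msi1.

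Other metabolic lists stayed near the background. Of 152 solute carriers outside the mitochondrial family, 33 were higher and 7 lower, with a median of 0.19 (−0.14 over all 304). The nucleotide sugar carrier relative Slc35f5 and the zinc transporter Slc30a4 differed by 4.28 and 4.19. Mitochondrial Slc25 carriers had 5 members higher and 1 lower of 26, with a median of 0.16 (−0.33 over all 46) that became −0.04 after quantile normalization. Of 53 detoxification enzymes, 13 were higher and 1 lower, with a median of 0.30 (−0.15 over all 127), led by the sulfotransferase Sult1d1, at least 7.15-fold higher. Immediate early genes had 3 members higher and 0 lower of 18, with a median of 0.03 (−0.09 over all 20) that became −0.02 after quantile normalization.

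The shares of noncoding RNAs called higher and lower differed by class. Small nucleolar and Cajal body RNAs had 9 members higher and 0 lower of 23, with a median of 0.84 (0.21 over all 54). Scarna17, a Cajal body RNA, read 8.21 in Msi1, 5.49 in IgG and 10.58 in hnRNP, so that it was brighter with the hnRNP antibody. Snora3 read 5.87 in Msi1, 3.03 in IgG and 8.57 in hnRNP on the probe set chosen. Its other probe set had the opposite order of the antibodies, with 4.82 in Msi1, 3.83 in IgG and 4.09 in hnRNP. Host genes of small nucleolar RNAs and long noncoding RNAs on the list had 4 members higher and 0 lower of 9, with a median of 0.90 that became 0.01 after loess centring and −0.02 after quantile normalization. The Y RNA gene Rny3, whose RNA is part of Ro particles, read 10.92 in Msi1, 7.38 in IgG and 10.32 in Input. Rn7sk, the RNA that holds the elongation factor P-TEFb inactive, read 13.42 in Msi1 and 11.98 in IgG and differed by 1.45 and 1.86 on its probe sets. Of 256 long noncoding RNA genes, 14 (5.47%) were higher and 36 (14.1%) lower, against 19.3% higher and 6.35% lower among 9797 protein-coding genes. The receptor genes that set the floor had 0.838% higher and 16.2% lower, counted without a floor. The share lower thus lay near background, and a loss of long noncoding RNA from the Msi1 precipitation cannot be read from it.

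MicroRNA genes were lower more often than higher, and their sequences are shown to let the Musashi letters be seen in them. Of 302 microRNA genes on the array, 83 were tested, 3 were higher and 13 lower, and the median was −0.26 (−0.37 over all 302), which kept its sign under median centring (−0.13), loess centring (−0.38) and quantile normalization (−0.62). After quantile normalization 7 were higher and 30 lower. The receptor genes that set the floor had a median of −0.38 as deposited, with 0.838% higher and 16.2% lower, counted without a floor. The microRNA values lay near that background, so a loss of microRNA from the Msi1 precipitation cannot be read from them. The probe sets read labelled cDNA of longer RNA, so the mature form and its precursor cannot be told apart. Mature sequences from RefSeq (GRCm38.p6) are given 5′ to 3′ for 4 lower and 3 higher genes, with the seed (bases 2 to 8) in capitals.
mmu-miR-713: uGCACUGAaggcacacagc
mmu-miR-196b-5p: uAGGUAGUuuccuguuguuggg
mmu-miR-188-5p: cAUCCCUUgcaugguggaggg
mmu-let-7g-5p: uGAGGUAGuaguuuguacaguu
mmu-miR-692: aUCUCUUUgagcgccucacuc
mmu-miR-680: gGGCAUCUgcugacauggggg
mmu-miR-338-3p: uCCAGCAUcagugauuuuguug

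Among the lower of these, miR-713 is annotated at chr13:62760807-62760825 on the plus strand, and its gene read 4.0 in Msi1 and 5.64 in IgG, with 3 probe sets from −1.82 to −0.37. The gene of miR-196b-5p (chr6:52230129-52230150, minus strand) read 3.98 in Msi1 and 5.50 in IgG. The gene of miR-188-5p (chrX:7248031-7248051, minus strand) read 6.25 in Msi1 and 7.72 in IgG, above the floor on both arrays. The gene of let-7g-5p (chr9:106178846-106178867, plus strand) read 4.93 in Msi1 and 6.15 in IgG. Of the higher genes, that of miR-692 (chr17:6895259-6895279, minus strand) read 7.98 in Msi1 and 6.37 in IgG, that of miR-680 (chr12:35194849-35194869, minus strand) read 6.67 in Msi1 and 5.38 in IgG, and that of miR-338-3p (chr11:120014781-120014802, minus strand) read 5.66 in Msi1 and 4.59 in IgG. The sequences shown share no seed, and the 20 mature sequences of the 12 called or ranked genes found in the table had 20 distinct seeds.

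Hairpins were searched on the transcribed strand for GUAGU or GUUAGU or GUUUAGU, and for AUAGU or AUUAGU or AUUUAGU, the letters known from Musashi binding studies, with a hairpin counted 1 time however many it held. Of 1005 mouse hairpins in the table, 139 (13.8%) held such letters, against 10 of the 68 tested microRNA genes with a hairpin there (14.7%). Those 10 were 3 of 11 lower genes, 7 of 54 genes past 2-fold in neither direction and 0 of 3 higher genes. The 3 lower genes were Mir713, Mir196b and Mirlet7g. In miR-196b-5p and let-7g-5p the letters GUAGU lie in the mature strand. Messenger RNA sequences were not used here.

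Markers of other cells of the gut wall were counted too, and in bulk RNA the number of cells of a type and the RNA each of them yields cannot be told apart. Goblet cell markers had 4 members higher and 1 lower of 7, with a median of 1.22, among them the mucin Muc2 (2.52-fold), the disulfide isomerase Agr2 that folds it (2.34-fold) and Clca1 (2.32-fold). Of 4 Paneth cell markers tested, of 6, 2 were higher and 0 lower, the defensin Defa24 at 3.81-fold and the lectin Reg3g at 5.50-fold, while lysozyme (Lyz1) read 7.11 in Msi1 and 8.10 in IgG. Stem cell markers had 2 members higher and 1 lower of 6, with a median of 0.07 that became −0.02 after quantile normalization. Enteroendocrine markers had 0 higher and 1 lower of 5, Chga, with 4.14 in Msi1 and 5.58 in IgG. Tuft cell markers had 1 higher and 1 lower of 4, Rgs13 (2.60) and the leukotriene synthase Ltc4s (−1.40). Stromal and muscle markers had 0 of 5 past 2-fold in either direction and a median Input signal of 4.80, near the Input floor, and of 5 neuron and glia markers only Uchl1 was tested (−0.34). Of 54 collagen and laminin genes, 43 were tested, 0 were higher and 1 lower, with a median of −0.47 (−0.51 over all 54), below 0 under each scaling. After quantile normalization 16 of the 43 were lower, and after loess centring 5. The receptor genes that set the floor had a median of −0.38 as deposited, near that of the collagens and laminins. Keratins and claudins had 4 members higher and 3 lower of 31, with a median of −0.13 (−0.24 over all 71) that became 0.01 after median centring. Krt20, a keratin of mature villus cells, read 9.54 in Msi1 and 6.09 in IgG.

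Immune genes were few and fell on both sides. Of 6 immune markers on the array, 2 were tested, Cd74, which read 5.40 in Msi1, 4.85 in IgG and 9.74 in Input, and the B cell gene Cd79a, which read 3.11 in Msi1, 5.88 in IgG and 2.90 in Input. The leukocyte gene Ptprc and the T cell gene Cd3e read 4.05 and 4.41 in Msi1 and 4.02 and 5.14 in IgG, below the floor on both arrays. Of 11 antigen presentation and immunoglobulin genes, 2 were higher (B2m and Pigr) and 1 lower, with a median of 0.11 (0.02 over all 17). The immunoglobulin kappa gene Igkv4-55 read 5.78 in Msi1, 7.98 in IgG, 4.36 in Input and 6.32 in hnRNP. Whether immunoglobulin RNA or the antibodies used bear on that value was not tested.

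Genes lower in Msi1 were dimmer in Input than the genes that were higher, with median Input signals of 4.27 and 7.43. At either end the dimmer array was mostly under its floor, and IgG was so for 41 of the 45 highest genes. The 25 lowest differed by −2.77 to −1.88, Msi1 was below its floor for 22 of them and Input for 15, and 18 were still at least 2-fold lower with the Msi1 signal raised to its floor. Ranks 11 to 25 from the bottom held several genes of other tissues. Pomc, the precursor of pituitary hormones, read 4.10 in Msi1, 6.02 in IgG and 3.85 in Input. Dio3, which inactivates thyroid hormone, read 3.36 in Msi1, 5.40 in IgG and 2.45 in Input, and is at least 1.58-fold lower by the stricter reading. The odorant-binding protein gene Obp1a read 3.80 in Msi1 and 5.89 in IgG, the protocadherin Pcdh9 read 4.15 in Msi1 and 6.17 in IgG, and the sulfotransferase Chst2 read 4.38 in Msi1 and 6.37 in IgG. The zinc finger genes Zfp213 and Zfp61 differed by −2.14 and −1.91. Kctd7 was at least 3.38-fold lower, and the kinase Ripk4 at least 1.45-fold.

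Above the floor on both arrays, the 10 lowest genes differed by −2.51 to −1.62, and none had several probe sets. Beside Ftl1, Igkv4-55 and Srpr, the salivary proline-rich protein gene Prp2 read 5.89 in Msi1 and 7.95 in IgG, with 5.85 in Input and 7.84 in hnRNP. The RING finger gene Rnf166 was 3.65-fold lower, the tight junction gene Cldn9 3.50-fold, the endoplasmic reticulum protein gene Wfs1 3.09-fold and Epop, a partner of Polycomb proteins, 3.07-fold. Pate11 and Prrt1 were 3.62-fold and 3.11-fold lower. In the plot of signals on the 4 arrays, Input lay below IgG for all of these genes except Srpr.

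The share of genes higher in Msi1 increased with their level in Input. Of 1371 tested genes at or below the Input floor, 1.24% were higher and 21.1% lower. The share higher was 6.60% of 3999 genes from the floor to 6, 20.5% of 2003 genes from 6 to 7, 36.4% of 1572 genes from 7 to 8, 44.0% of 825 genes from 8 to 9 and 56.3% of 336 genes from 9 to 10. It was 62.1% of 116 genes from 10 to 11 and 62.7% of 59 genes over 11. The median Msi1 signal increased over these bins, with 4.87 in the lowest and 7.93 in the highest. The median IgG signal was 5.36 in the lowest bin, between 5.13 and 5.54 in the next 6 and 6.41 in the highest. Genes higher in Msi1 had a median Input signal of 7.43 and 99.1% of them exceeded the Input floor, while 29.8% exceeded the hnRNP floor. Lower genes had a median Input signal of 4.27, with 58.2% above the Input floor and 60.3% above the hnRNP floor. Genes past 2-fold in neither direction had a median Input signal of 5.61, with 86.1% and 62.1% above those floors. A high list median above is therefore to be read beside the list's Input level. That level was 7.40 for SR splicing factors, 7.68 for hnRNP proteins and 8.16 for coat proteins. It was 10.25 for enterocyte markers, 9.42 for brush border, 9.20 for fat absorption, 10.62 for goblet and 8.07 for translocation genes. In that order the latter lists had 66.7%, 60.9%, 55.6%, 57.1% and 47.4% higher, near the shares of their Input bins. The SR, hnRNP and coat lists, at 80%, 66.7% and 62.5%, stood above the shares of theirs. The classes also passed the filter differently. Every lower gene exceeded the IgG floor, while 1549 of the 1924 higher genes did not. The shares above the hnRNP floor cannot be told apart from that filter.

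**Figure D4:**
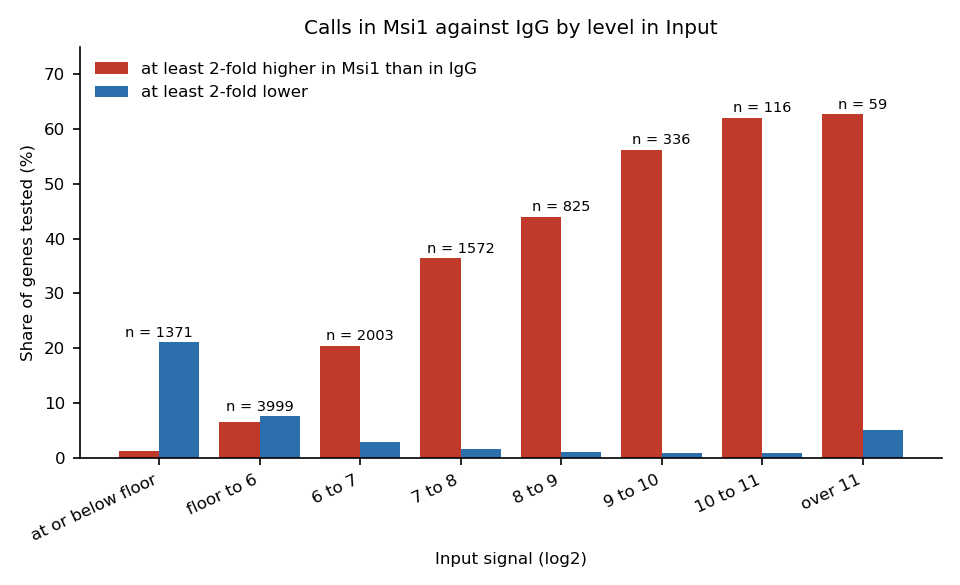
Share of tested genes (vertical axis, %) called higher (red) and lower (blue) in Msi1 against IgG at 2-fold, by Input signal (horizontal axis, log2), with the number of genes above each pair of bars. The red bars run from 1.24% at or below the floor to 62.7% over 11, and the blue bars from 21.1% at or below the floor down to 0.862% from 10 to 11, with 5.08% over 11.

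The brightest genes in Input fell into all 3 classes. Of the 100 genes brightest in Input, with signals from 10.56 to 13.92, 62 were higher in Msi1, 4 lower and 34 neither. Those higher included the transcytosis gene Mal2 (5.14), Fabp2 (4.56), the antimicrobial lectin Reg3b (8.47 in Msi1 and 4.04 in IgG) and the chemokine Ccl25 (9.26 in Msi1 and 5.04 in IgG). The lower genes were Rpl9, Atp5d, the histone gene H2ac15 and Ndufs7. Among the 34 others were the keratin Krt8 (8.75 in Msi1, 8.80 in IgG), the glycolytic enzyme Ldha (6.93 in Msi1, 6.73 in IgG), the translocon subunit Sec61a1 (5.55 in Msi1, 5.23 in IgG) and Msi1 itself (8.09 in Msi1, 8.14 in IgG). Their Input signals were 12.79, 11.72, 10.83 and 12.16.

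Genomic span and chromosome were set beside the calls. For genes above 7 in Input, the shares below are to be read beside those of the Input bins, not beside 18.7%. Those were 36.4% of 1572 genes from 7 to 8, 44.0% of 825 from 8 to 9 and 56.3% or more above 9. Over genes with an Input signal above 7, the share called higher was 32.8% among the 582 genes with the shortest genomic span (0.062 to 7.84 kb, RefSeq GRCm38.p6). It was 36.5%, 46.3%, 49.6% and 47.0% in the 4 groups of increasing span that follow, with 581 genes each, the last reaching from 64.9 to 2271 kb. The median Input signal over these 5 groups was 8.17, 7.87, 7.96, 7.85 and 7.76. Over all classes, higher genes had a median span of 27.9 kb, lower genes 11.9 kb and the others 17.9 kb. By chromosome, again above 7 in Input, the share was highest on chromosome 12 (60.2% of 98 genes), 3 (54.6% of 163) and 13 (53.8% of 117). It was lowest on chromosomes 7 (26.0% of 200), 19 (28.7% of 108) and 17 (33.1% of 130). Median Input signals were 7.79 on chromosome 12 and 7.84 on chromosome 7, and median spans were 28.9 and 15.9 kb.

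**Figure D5:**
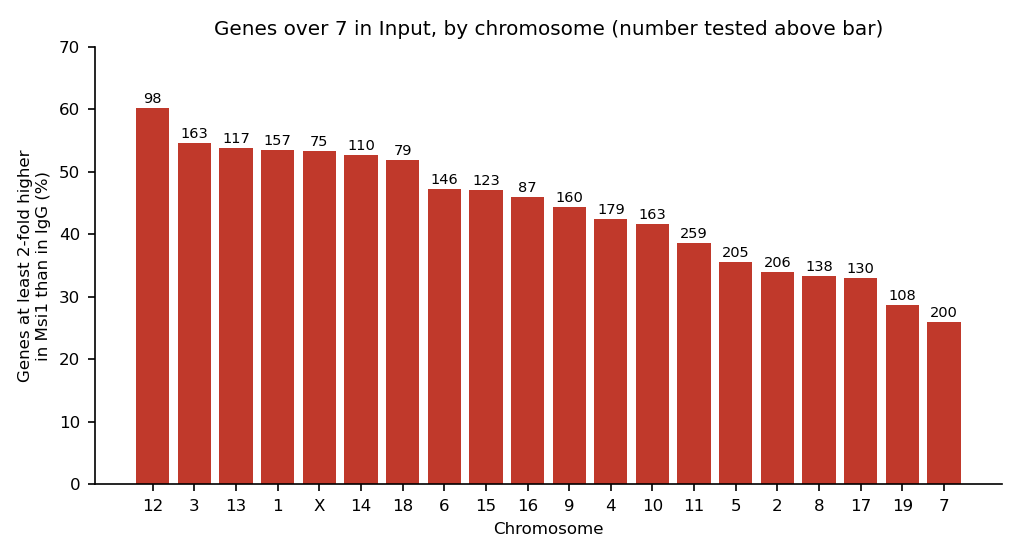
Share of genes (vertical axis, %) called higher in Msi1 against IgG at 2-fold among tested genes with an Input signal above 7, by chromosome (horizontal axis), with the number of genes above each bar. Chromosome 12 stands highest at 60.2% and chromosome 7 lowest at 26.0%.

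Probe sets of the same gene are the only repeated measurement on this pair of arrays, and they read the same RNA. Of 480 genes with at least 2 probe sets tested, the median range between the probe sets of a gene was 1.22 log2 units. For 173 genes that were higher by the probe set chosen, 90 had every probe set at least 2-fold higher, 30 had a probe set below 0 and 8 had a probe set at least 2-fold lower. For 30 genes that were lower, 0 had every probe set lower, 17 had a probe set above 0 and 10 had a probe set at least 2-fold higher. Of 277 genes past 2-fold in neither direction, 86 had a probe set that was higher and 39 a probe set that was lower. Agreement between probe sets was thus more frequent for genes called higher than for genes called lower, in these counts. Higher probe sets were also more frequent than lower ones among the genes in neither direction. The counts therefore cannot show which kind of call repeats better.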

How the data were processed

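The series holds 4 arrays, of which those labelled Msi1 and IgG were compared and those labelled Input and hnRNP gave context. Groups follow the antibody named in the labels. The deposited values, taken as log2, were used as the authors left them. Per the submitters' processing notes, affy was used. Not given in the sources used here are its version, the background correction, the normalization and the base of the logarithm. Values ran from 1.07 to 14.3, and every fold rests on reading them as base 2.

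Of 34760 probe sets, 21640 carried 1 gene symbol in the platform annotation and gave 19937 genes, 1321 carried several symbols and 11799 none. The RefSeq table was joined to 21553 probe sets by Entrez identifier. Several probe sets were present for 954 genes, each represented by its brightest (mean of all 4 arrays). The 1194 receptor genes that set the floor were left out of the genes tested. A call is a difference of at least 1 log2 unit, with no p-value.

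The comparison, the 56 gene lists (2853 members on the array) and the genes named were chosen with earlier results of these data known. Named genes were the 45 highest and 25 lowest, the 15 highest and 10 lowest above both floors, up to 4 highest and 2 lowest of each list, Musashi targets, and up to 5 microRNA genes each way. Rankings left out predicted genes, clones, microRNAs, Snora and Snord genes, receptors and pseudogenes by symbol, so that Mrgpra6, annotated as a transcribed pseudogene, stayed in. A few further genes (Rny3, Reg3b, Ccl25, Krt8, Ldha, Sec61a1, Atp5d, Ndufs7, Vil1, Anpep, Fabp1, Lct, Apoa1, Ptprc, Cd3e and Mirlet7g) were named after their values were seen. Promoter base composition was not used, since 76.3% of the lower genes had a promoter in the table. Calculations were tested on simulated data. Alternatives were 3 scalings (median centring, quantile normalization, loess with a span of 0.4), other floors and thresholds, and other choices of probe set. Calculations ran in Python 3.11.15 (numpy 2.4.6, pandas 2.3.3, statsmodels 0.14.6, scipy 1.17.1) and plots in matplotlib 3.10.9.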

Additional observations from a re-analysis of the deposited data

Results flagged for a closer look

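Probe sets outside the comparison by gene also carried signal. Of the 1321 probe sets with several gene symbols, 662 were above the floor on Msi1 or IgG, and Msi1 exceeded IgG by 2-fold or more for 179 of these (27.0%) and lay below it by as much for 80 (12.1%), the median difference being 0.20. Of the 11799 probe sets with no symbol here, 4820 were above a floor, of which 1187 (24.6%) were higher and 1012 (21.0%) lower by the same threshold, the median being −0.05. Neither kind entered any count above.

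No single gene can be named from a probe set with several symbols. A probe set shared by the phosphatase gene Ptp4a1 and a pair of predicted genes read 10.6 in Msi1 and 2.35 in IgG, a difference of 8.21, and another with the same symbols differed by 6.07. A probe set shared by Npm1 and Gm15484 read 8.59 in Msi1 and 3.86 in IgG. At the other end, a probe set shared by Ino80 and Rpl35a read 1.89 in Msi1 and 6.50 in IgG, a difference of −4.60, and a probe set shared by the globin genes Hba-a1 and Hba-a2 read 1.47 in Msi1 and 5.56 in IgG.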

How the results depend on the processing

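With 1 array per group, no spread, interval or test could be had, and signal over background limits the dimmer side of most calls. The 1924 higher genes became 375 with detection on both arrays, 1118 with dimmer values at the floor, 2964 at 1.5-fold and 1062 at 3-fold. Under the same settings the 692 lower genes became 251, 395, 1999 and 111, and they became 1549 with quantile normalization, 325 with the floor at the 99th percentile and 1451 with no floor. Of the 1924, 1924 remained higher under median centring, 1829 under quantile normalization and 1863 under loess centring, and of the 692 lower genes 489, 692 and 549 remained. Median centring added 0.13 to every difference, so no higher gene could be lost under it. With detection on both arrays only 1 member of the CCT chaperonin list, Cct3, was tested, and the list's value of −0.10 is that gene's. With dimmer values at the floor, Foxf2 was −0.00674, Krt77 −0.0358 and Tcp1 −0.0675. With the mean of the probe sets, Hnrnph2 was 0.28, Hspe1 0.95 and Rpl27a 0.22. With the probe set brightest on Input, Hnrnph2 was 1.58, Rpl27a 0.55, Idi1 −0.72, Lamtor3 −0.024 and Lsm6 −0.12, and Idi1 was −0.97 when quantile normalization also changed its probe set. The cause of these changes was not tested beyond what each setting alters. Of 56 lists, 43 kept the sign of their median under all 3 scalings. No paired analysis was possible because each group has 1 array.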
